A study of Homo sapiens with 6 samples.

Results

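Nuclear receptors are transcription factors that bind small lipophilic ligands such as steroids, thyroid hormone, retinoids, oxysterols and fatty acids. The 45 members of this superfamily followed here were named by gene symbol, matched to the count table by Ensembl identifier without its version, and were all found among its 64299 genes. RNA was sequenced from HEK293T, an immortal line from human embryonic kidney that takes up plasmids readily. In 3 libraries the cells had been transfected with a plasmid labelled ERbeta, and in 3 with an empty vector, EV_Ctrl, each with 1 µg of plasmid in all and a lipid-based reagent. All cells thus carried a plasmid treatment, and no untransfected group is used here. The labels give neither the share of cells that took up the plasmid nor whether replicates came from separate cultures. The p-values therefore cover only the variation among these 6 libraries, which may be technical. The series concerns the endoplasmic reticulum (ER) and proteins prone to form amyloid. From background knowledge of the study, ERbeta is an artificial β-sheet protein sent into the ER and not the estrogen receptor, although the same name is in common use for the receptor that the gene ESR2 encodes.

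Most members share a DNA-binding domain of zinc fingers and a ligand-binding domain that recruits coactivators or corepressors. Steroid receptors act mainly as homodimers and are held ready for hormone by Hsp90 complexes. Thyroid, retinoic acid, vitamin D, PPAR and LXR receptors pair with a retinoid X receptor (RXR), while many orphan receptors act without a known ligand. The kidney is a classical target of mineralocorticoids and vitamin D. Breast and uterus are classical targets of estrogen.

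The depth of the libraries was 6833442 to 27101644 reads. The markers set out for HEK293 cells, among them PAX2, LHX1 and NEFL, were at 1 CPM or more in every library in 9 of 9 cases. Of the other marker genes, the liver and blood genes stayed under 1 CPM in every library, with TTR, CD3E and HBB at 0 reads in all. Of the breast markers GATA3, FOXA1 and KRT19 were above 1 CPM and TFF1 was at 0. Of the fibroblast markers COL1A1 was at 13.5 to 31.0 CPM, LUM was at 0.784 to 2.09 CPM, and DCN was at 0 in most libraries. The libraries also differed in how read counts depended on GC content. Genes of at most 42.2% GC lay 0.11 to 0.38 above their own mean (log2) in the ERbeta libraries and 0.13 above it in EV_Ctrl 2, and lay at -0.43 and -0.36 in EV_Ctrl 1 and 3. Genes of at least 56.4% GC lay at -0.29 in ERbeta 3 and at 0.13 and 0.12 in EV_Ctrl 1 and 3. They lay between -0.01 and 0.06 in ERbeta 1, ERbeta 2 and EV_Ctrl 2. The dependence on GC content thus moved with the group only in part, with EV_Ctrl 2 beside the ERbeta libraries. The part of GC content in the differences below was not tested beyond the GC-corrected values given beside them.

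ESR2, the gene of estrogen receptor beta, was close to the limit of detection in every library. It lies on chromosome 14 (64084232 to 64338112, minus strand, GRCh38). ESR2 had 7, 2 and 2 reads in ERbeta 1, 2 and 3, and 3, 7 and 5 reads in EV_Ctrl 1, 2 and 3. In CPM, read counts scaled to the depth of each library with TMM factors, ESR2 was at 0.432, 0.130 and 0.161 in ERbeta and at 0.416, 0.264 and 0.435 in EV_Ctrl. The ERbeta libraries were therefore not the high ones, and the groups overlapped. They held 11 of 26 ESR2 reads, or 42.31% (exact binomial 95% interval 23.35% to 63.08%, counting error only), where they held 50.42% of all reads. The difference in ESR2 CPM had an exact permutation p of 0.3 (two-sided), and 3 against 3 libraries cannot give less than 0.1. Without ERbeta 1 the share was 21.05% against 39.3% of all reads. In these libraries the label ERbeta thus did not go with ESR2 mRNA. Reads of an insert would be counted for ESR2 only if their sequence matched the human gene.

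The sequence before an annotated start of ESR2 is shown because this is the gene that the label could be taken to name (RefSeq, GRCh38.p14, chr14:64294411-64294660, minus strand, 5′ to 3′). Capitals mark an E-box, CACGTG, which starts 36 bases before the transcription start.
ESR2: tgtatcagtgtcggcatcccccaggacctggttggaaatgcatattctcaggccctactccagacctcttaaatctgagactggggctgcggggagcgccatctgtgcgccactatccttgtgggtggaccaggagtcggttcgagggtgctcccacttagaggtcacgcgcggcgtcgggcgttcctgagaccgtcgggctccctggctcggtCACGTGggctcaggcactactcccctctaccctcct

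ESR1, the gene of estrogen receptor alpha, was as scarce. ESR1 had 6, 7 and 9 reads in ERbeta 1, 2 and 3, against 2, 4 and 1 reads in the EV_Ctrl libraries in the same order, or 0.371, 0.456 and 0.722 CPM against 0.277, 0.151 and 0.0871 CPM. The groups did not overlap, ERbeta being higher, but every library had fewer than 10 reads. Of 29 ESR1 reads, 75.86% were in ERbeta (56.46% to 89.7%), and the exact permutation p was 0.1, the smallest that this design allows. With all libraries ESR1 and ESR2 were both under the filter on low counts and were not tested across genes. Without EV_Ctrl 1 and 3 ESR1 came above that filter only through ERbeta 3, where it was highest. Its log2 fold change in that fit, 1.70, is given as a description. The transcripts of ESR1 and ESR2 in GENCODE 29 share 0 stretches of 50 bases, and neither do any of the 990 pairs of the 45 members. In bulk RNA, fewer cells making an mRNA and less of it per cell cannot be told apart.

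**Figure D1:**
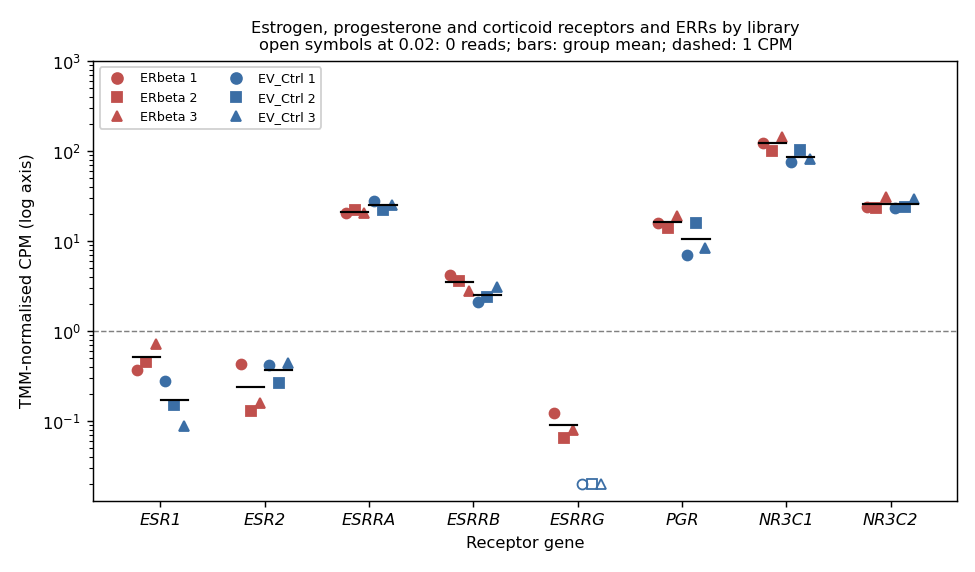
TMM-normalised CPM (log axis) of 8 receptor genes in each of the 3 ERbeta (red) and 3 EV_Ctrl (blue) libraries, with the group mean as a bar, 1 CPM as a dashed line and open symbols for 0 reads. ESR1, ESR2 and ESRRG lie under 1 CPM in every library, and for ESR2 the ERbeta 2 and 3 points lie under all EV_Ctrl points while ERbeta 1 lies among them.

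The estrogen-related receptors (ERRs) bind related DNA but no estrogen and are known for control of mitochondrial genes. ESRRA was at 20.6, 22.1 and 20.6 CPM in ERbeta and 27.7, 22.1 and 24.9 CPM in EV_Ctrl (log2 fold change -0.23 ± 0.12, SE). ESRRB, known from pluripotent cells, was at 4.14, 3.58 and 2.81 against 2.08, 2.38 and 3.05 CPM (log2 fold change 0.49 ± 0.22). ESRRB was lowest in EV_Ctrl 1 and 2, and the groups overlapped for both genes. ESRRG had 2, 1 and 1 reads in ERbeta and 0 in each EV_Ctrl library. Per kilobase of exons ESRRA made up 93.6% of the 3 ERR mRNAs.

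PGR, the progesterone receptor and itself a classical estrogen receptor target, was measured well above the estrogen receptors. It was at 15.7, 13.9 and 18.9 CPM in ERbeta and at 7.07, 15.8 and 8.45 CPM in EV_Ctrl. EV_Ctrl 2 lay within the ERbeta range and EV_Ctrl 1 and 3 well under it. The log2 fold change was 0.57 ± 0.29 (edgeR's quasi-likelihood test, adjusted p 0.425). Without EV_Ctrl 2 it was 1.05 (adjusted p 0.00322), and without EV_Ctrl 1 and 3 it was 0.03.

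NR3C1, the glucocorticoid receptor, was the most abundant steroid receptor per kilobase of exons. It was at 121, 101 and 144 CPM in ERbeta 1, 2 and 3 and at 75.5, 103 and 81.2 CPM in EV_Ctrl 1, 2 and 3. EV_Ctrl 2 again lay among the ERbeta libraries. The log2 fold change was 0.49 ± 0.17 (edgeR, adjusted p 0.397), and 0.12 with GC correction. NR3C2, the mineralocorticoid receptor, was at 26.0 ± 4.07 against 25.5 ± 3.13 CPM (SD, n = 3 each). Its log2 fold change, 0.03 ± 0.15, is small beside the spread within each group.

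HEK293T cells made mRNA of 32 of the 45 receptors, counting those with at least 1 CPM in each of the 6 libraries. The remaining 13 all had reads in some library, between 3 and 99 in total. They were ESR1, ESR2, ESRRG, RXRG, RORB, NR1H4 (the bile acid receptor FXR), NR1I2 (the xenobiotic receptor PXR), HNF4A and HNF4G of liver and gut, NR2E3 of photoreceptors, NR5A1 (steroidogenic factor) and the receptors without a DNA-binding domain, NR0B1 and NR0B2. At the threshold, ESRRB was just inside with 2.08 CPM in its lowest library, and NR5A1 just outside with 0.522 CPM. The number was 33 with a mean of at least 0.5 CPM in each group and 26 with at least 1 CPM per kilobase.

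Compared per length, the most abundant members were a mix of RXR partners, orphan receptors and hormone receptors. RXRB, a shared dimer partner, stood at 22.3 ± 2.01 CPM per kilobase of exons (SD over 6 libraries). NR2F2 (COUP-TFII), a developmental orphan receptor, followed at 19.3 ± 1.54, and its relative NR2F6, known as a repressor in lymphocytes, at 16.6 ± 2.75 CPM per kilobase. NR1D2 (REV-ERBβ), a repressor of the circadian clock, was at 14.7 ± 6.09 and NR3C1 at 11.4 ± 2.78 CPM per kilobase. NR1H2 (LXRβ), an oxysterol receptor, was at 11.2 ± 1.08, THRA, a thyroid hormone receptor, at 10.5 ± 0.50, and NR2C2 (TR4), an orphan receptor, at 9.64 ± 0.94 CPM per kilobase. RXRB ranged from 18.9 to 25.1 and NR2F2 from 17.0 to 21.3 CPM per kilobase over the libraries. Their ranges overlapped, as did those of each further pair of neighbours among these 8, but RXRB was above NR2F2 within each of the 6 libraries. The other neighbouring pairs stood in the order of their means in 2 to 5 of the 6 libraries, so the order of those neighbours was not the same in every library.

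Per library these abundant receptors mostly showed overlapping groups. RXRB was at 88.2, 90.15 and 74.05 CPM in ERbeta and 98.4, 89.0 and 85.8 CPM in EV_Ctrl. NR2F2 was at 132, 121 and 120 against 128, 110 and 138 CPM. The groups interleaved in both, with ERbeta 3 lowest for RXRB and EV_Ctrl 2 lowest for NR2F2. NR2F6 was at 36.8, 46.8 and 34.1 against 53.1, 46.5 and 49.0 CPM, where only ERbeta 2 reached the EV_Ctrl range. NR1H2 was at 43.4, 44.4 and 36.5 against 47.1, 42.8 and 37.8 CPM. NR2C2 was at 126, 108 and 114 against 109, 99.5 and 128 CPM. Both genes again had ERbeta and EV_Ctrl libraries in mixed order.

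**Figure D2:**
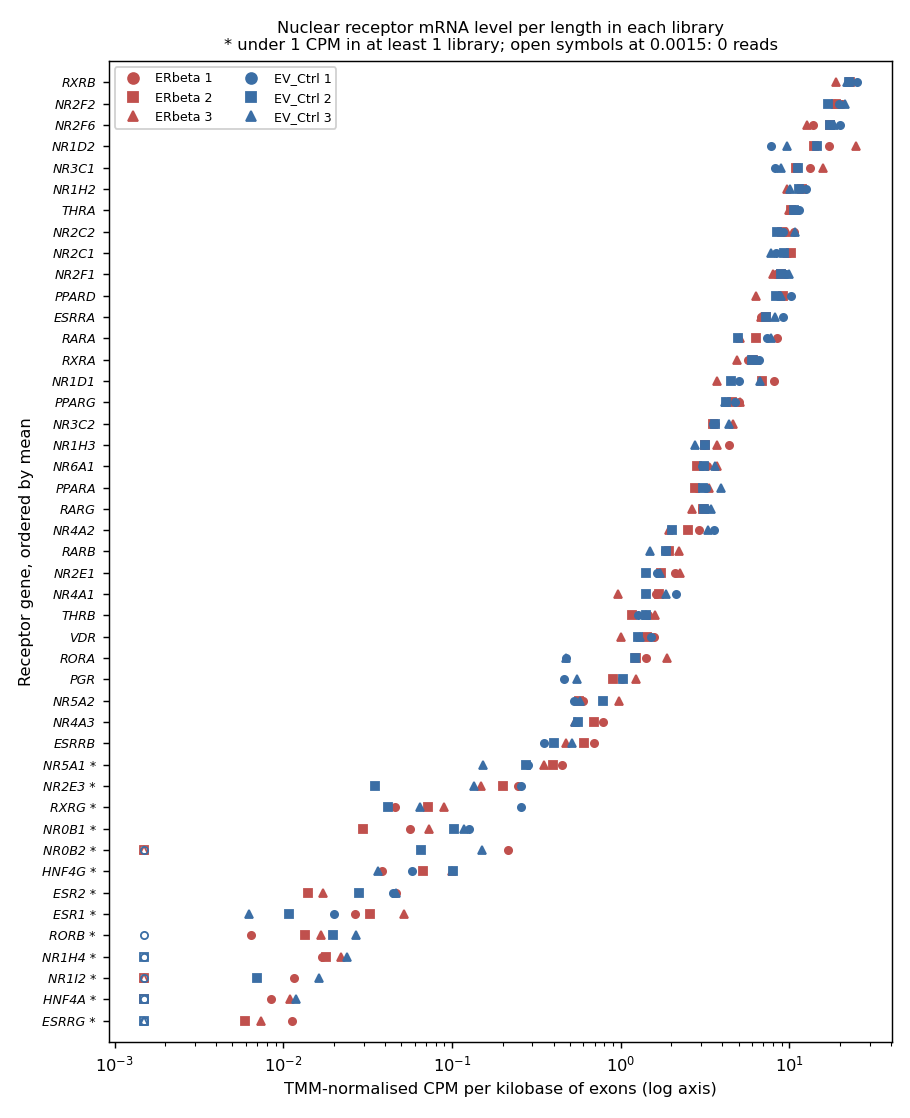
TMM-normalised CPM per kilobase of exons (log axis) of the 45 receptor genes, ordered by their mean, with 1 point per library for 3 ERbeta (red) and 3 EV_Ctrl (blue) libraries. RXRB is at the top with a mean of 22.3, and the 13 genes marked with a star, under 1 CPM in at least 1 library, form the lower end.

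In several families 1 paralog held most of the family's CPM per kilobase, while others were more even. Among RXRs, RXRB held 78.7% and RXRA 20.9%, and RXRG of muscle and brain held 0.33%. Thyroid hormone receptor mRNA was 88.4% THRA, and LXR mRNA, which encodes sensors of cholesterol load, was 76.8% NR1H2. Retinoic acid receptors were more even, with 56.8% RARA, 26.8% RARG and 16.4% RARB. Among PPARs, the fatty acid sensors, PPARD held 52.2%, PPARG, which drives fat cell formation, 28.3%, and PPARA 19.4%. The immediate early orphan receptors were 54.7% NR4A2, 32.5% NR4A1 and 12.8% NR4A3. The COUP-TF genes were also divided, with 43.2% NR2F2, 36.8% NR2F6 and 19.99% NR2F1, as were the testicular receptors, with 51.2% NR2C2 and 48.8% NR2C1. The shares of RXRB ranged only from 77.1% to 79.8% over the 6 libraries, while NR1D2 took from 59.1% to 87.1% of REV-ERB mRNA.

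The comparison of ERbeta with EV_Ctrl asks how cells respond to the ER-directed protein. Of the 45 receptors 33 passed the filter on low counts, the 32 above and NR5A1. With p-values of the quasi-likelihood test of edgeR adjusted by Benjamini-Hochberg over all 16243 genes, 0 of 33 receptors passed the threshold of 0.05, as did 0.0% of all genes. At an unadjusted p under 0.05 there were 4 receptors, all higher in ERbeta: NR1D2, NR3C1, RORA and NR5A1. That is 12.1% of the receptors, where 12.4% of all genes reached it (9.54% higher and 2.88% lower), so the receptors' share is near the background. DESeq2 called 0 receptors and 0.438% of all genes. The fold changes were positive for 18 and negative for 15 receptors with a median of 0.03, beside -0.01 over all tested genes. This median lay between -0.03 and 0.11 as single libraries were left out.

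**Figure D3:**
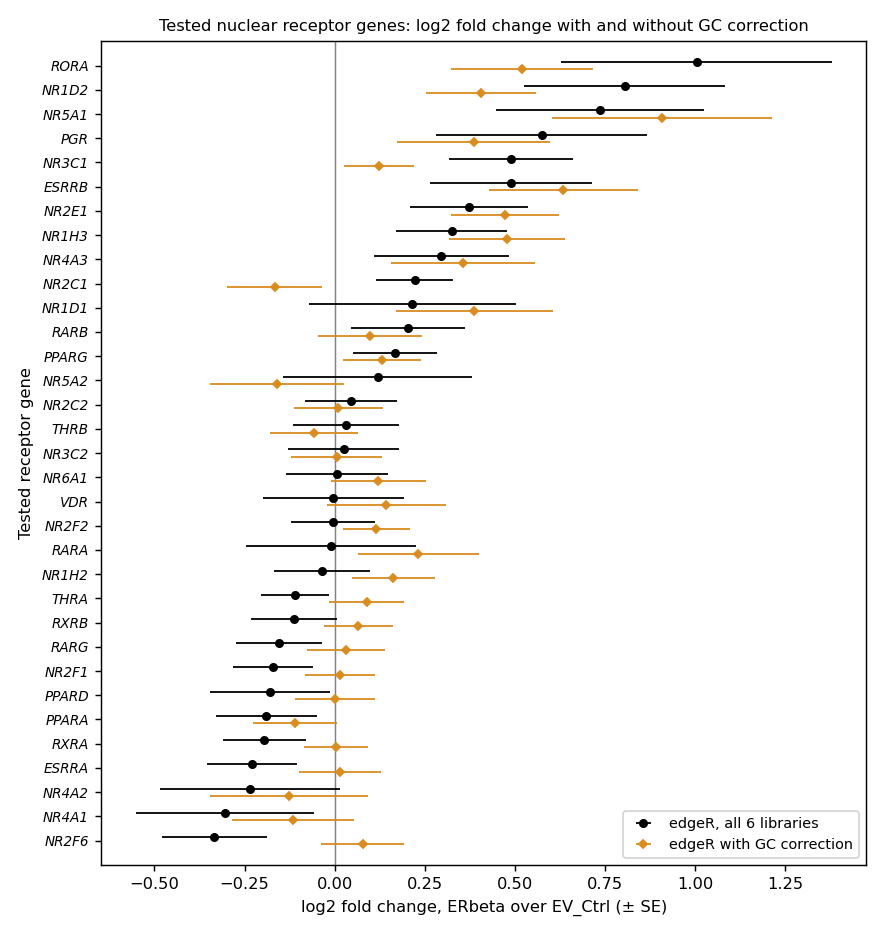
Log2 fold change of ERbeta over EV_Ctrl with its standard error for the 33 tested receptor genes, without (black circles) and with (orange diamonds) GC correction. RORA has the highest value, 1.00 without and 0.52 with correction, and NR2F6 the lowest, -0.33, which is 0.08 with correction.

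Members of the REV-ERB and ROR pair of families, which compete for the same DNA element in the circadian clock, had the largest fold changes with all libraries and no GC correction. With GC correction NR5A1 (0.91) and ESRRB (0.63) were higher than RORA and NR1D2. Without EV_Ctrl 1 and 3 ESRRB (0.58), NR5A1 (0.55), NR2E1 (0.53), NR1D1 (0.47) and RARA (0.43) were. NR2E3 (2.47) and ESR1 (1.70) came above the filter in that fit only through ERbeta libraries, where they were high. Both had few reads and were under the filter with all libraries, so their values are given as a description and not ranked. NR1D2 was at 100.2, 81.0 and 145 CPM in ERbeta and 45.4, 84.5 and 56.0 CPM in EV_Ctrl. RORA, an activator of clock genes, was at 24.0, 20.9 and 32.3 against 8.04, 20.8 and 8.10 CPM. In both genes EV_Ctrl 2 was the high control, and for RORA the groups were parted only by the step from 20.8 to 20.9 CPM. The log2 fold changes were 0.80 ± 0.28 for NR1D2 and 1.00 ± 0.37 for RORA (edgeR, adjusted p 0.397 for each). Without EV_Ctrl 2 they were 1.10 (adjusted p 0.00507) and 1.67 (adjusted p 0.000255), and without EV_Ctrl 1 and 3 they were 0.37 and 0.31. With GC correction they were 0.41 and 0.52. The other REV-ERB gene, NR1D1, was at 17.2 ± 6.27 against 14.96 ± 3.10 CPM (log2 fold change 0.22 ± 0.29), a difference within the spread. NR1D1 and THRA overlap tail to tail by 263 exonic bases on chromosome 17, and since the strand setting of the counting is not given, some of their reads may be shared.

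The bases before a start of NR1D2 are shown because it had the smallest p-value of the members and carries the letters of clock elements (RefSeq, GRCh38.p14, chr3:23945871-23946120, plus strand, 5′ to 3′). Capitals mark a pair of E-boxes, CACGTG, the letters bound by CLOCK and BMAL1, starting 155 and 105 bases before the start, and between them, 133 bases before the start, a match to the ROR and REV-ERB letters TNGGTCA on the other strand.
NR1D2: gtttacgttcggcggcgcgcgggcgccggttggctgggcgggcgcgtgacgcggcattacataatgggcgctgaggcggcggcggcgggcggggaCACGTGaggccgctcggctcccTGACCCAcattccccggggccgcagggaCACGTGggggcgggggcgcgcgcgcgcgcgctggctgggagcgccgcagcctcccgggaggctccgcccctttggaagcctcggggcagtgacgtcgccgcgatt

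An E-box was found in 7.26% and TNGGTCA in 9.45% of all 35116 RefSeq promoter windows of 300 bases, on either strand. Of 95 windows of 40 receptors 9 and 13 held them. A match is a description of letters and not of a bound site. The full estrogen response element, GGTCA and TGACC with 3 bases between, was in 0 of the 95 windows and in 0.057% of all windows.

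Receptors whose groups did not overlap numbered 7 of 33, or 21.2%, where 18.7% of all tested genes had such groups (10.2% higher and 8.48% lower). Higher in ERbeta were RORA, NR2C1, NR1H3, NR2E1 and NR5A1. NR2C1 (TR2), an orphan receptor of erythroid and stem cells, was at 63.9, 66.5 and 63.2 against 54.4, 60.3 and 51.1 CPM. Its log2 fold change, 0.22 ± 0.11, was -0.17 with GC correction. NR1H3 (LXRα) was at 20.01, 14.4 and 16.8 against 14.1, 14.3 and 12.5 CPM, with ERbeta 2 barely above EV_Ctrl 2. Its log2 fold change was 0.32 ± 0.15, and 0.48 with GC correction. NR2E1 (TLX), a receptor of neural stem cells, was at 7.84, 6.51 and 8.42 against 6.10, 5.28 and 6.36 CPM, and NR5A1 at 1.54, 1.37 and 1.203 against 0.970, 0.943 and 0.522 CPM. For NR2E1 the nearest libraries of the groups lay close together, and NR5A1 had only 6 to 25 reads per library. Their log2 fold changes were 0.37 ± 0.16 and 0.74 ± 0.29, and 0.47 and 0.91 with GC correction.

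Lower in ERbeta without overlap were THRA and RARG. THRA was at 71.0, 71.1 and 69.3 against 78.8, 74.3 and 75.2 CPM, and RARG, the retinoic acid receptor of skin, at 15.6, 15.7 and 13.6 against 16.5, 16.0 and 17.6 CPM. The steps between the groups were small in both. The log2 fold changes were -0.11 ± 0.09 and -0.15 ± 0.12, and both turned with GC correction, to 0.09 and 0.03. None of these 7 receptors passed the test over all genes, with adjusted p from 0.397 to 0.605 in edgeR.

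**Figure D4:**
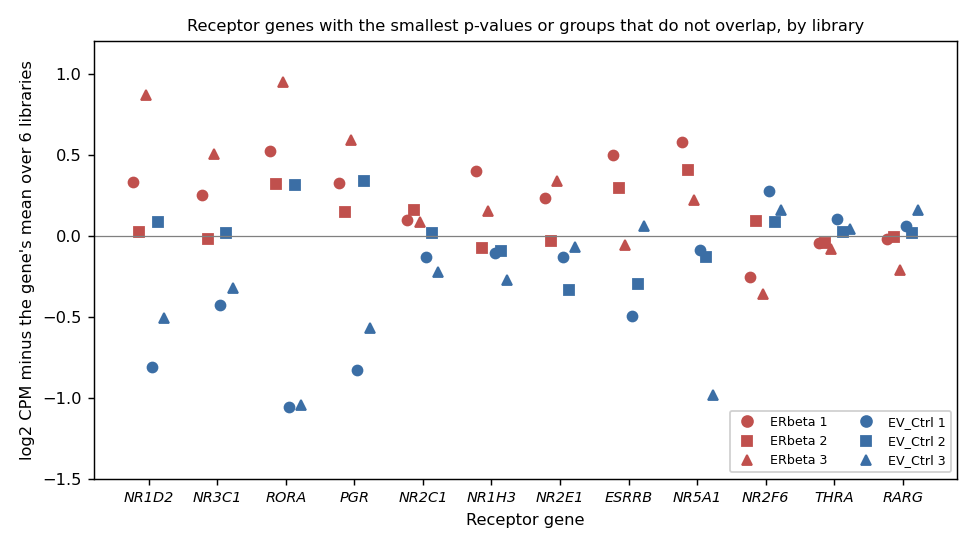
Log2 CPM minus the gene's mean over the 6 libraries for the 12 receptor genes with the smallest p-values or with groups that do not overlap, 1 point per library (ERbeta red, EV_Ctrl blue). For NR1D2, NR3C1, RORA and PGR the blue square, EV_Ctrl 2, lies above the blue circle and triangle, near the red points.

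The remaining tested receptors did not pass and had overlapping groups. RXRA was at 61.4 ± 6.40 against 70.4 ± 3.11 CPM (log2 fold change -0.20 ± 0.12) and RARA at 31.3 ± 7.93 against 31.7 ± 7.35 CPM (-0.01 ± 0.24). The PPARs were at -0.19 ± 0.14 for PPARA, -0.18 ± 0.17 for PPARD and 0.17 ± 0.12 for PPARG on the log2 scale. VDR, the vitamin D receptor, was at 7.60 ± 1.70 against 7.73 ± 0.75 CPM. NR4A1 and NR4A2, which respond to growth factors and stress within an hour in many cells, were at log2 fold changes of -0.30 ± 0.25 and -0.23 ± 0.25, and NR4A3 was at 0.30 ± 0.19. NR2F1, a relative of NR2F2 with a role in neural development, was at 36.3 ± 2.23 against 41.0 ± 2.43 CPM, a difference larger than either SD, with a log2 fold change of -0.17 ± 0.11. NR6A1, a receptor of germ cells and early embryos, was at 0.01 ± 0.14, and NR5A2, known from liver and pancreas, at 0.12 ± 0.26. None passed in edgeR's test, which does not show that they were equal in the groups. THRB was at 0.03 ± 0.15 and RARB at 0.20 ± 0.16.

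RARB is a textbook retinoic acid target through a repeat in its own promoter, and those letters are shown (RefSeq, GRCh38.p14, chr3:25428013-25428262, plus strand, 5′ to 3′). Capitals mark the repeat, GTTCA and AGTTCA with 5 bases between, which starts 52 bases before the start. It occurs in 0.0342% of all windows of 300 bases and in 1 of the 95 of the receptors. A match to the ROR and REV-ERB letters, TGGGTCA, starts 84 bases before the start and is not marked. RARB mRNA was at 6.79, 7.17 and 8.18 CPM in ERbeta and 6.79, 6.86 and 5.49 CPM in EV_Ctrl, with groups that met at their edges.
RARB: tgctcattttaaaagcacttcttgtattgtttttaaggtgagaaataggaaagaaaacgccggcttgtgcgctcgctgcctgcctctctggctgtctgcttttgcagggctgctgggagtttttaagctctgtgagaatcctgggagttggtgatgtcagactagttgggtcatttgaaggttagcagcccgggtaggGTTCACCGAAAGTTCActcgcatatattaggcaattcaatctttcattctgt

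The signs of the receptors' fold changes went with transcript GC content. All 11 tested receptors of at most 45% GC were positive, with a median of 0.20, where 81.2% of all genes in that band were positive, with a median of 0.26. Of the 15 with at least 55% GC, 11 were negative, with a median of -0.11 beside -0.14 for all genes there. Over the 33 receptors, which share the 6 libraries, fold change and GC content had r = -0.53 and rho = -0.60, and after GC correction r = 0.08 and rho = 0.04, given as a description. EV_Ctrl 2 lay nearer the ERbeta mean than the mean of EV_Ctrl 1 and 3 for 20 of the 33 receptors (60.6%), beside 64.0% of all genes. Among genes of at most 45% GC it did so for 10 of the 11 receptors (90.9%), beside 75.1% of all genes in that band. With GC correction 6 receptors were at an unadjusted p under 0.05, or 18.2% beside 11.0% of all genes (8.32% higher and 2.7% lower), and 0 passed with adjustment beside 0.137% of all genes (edgeR). These were NR1D2, RORA, NR5A1, NR2E1, NR1H3 and ESRRB, all higher.

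**Figure D5:**
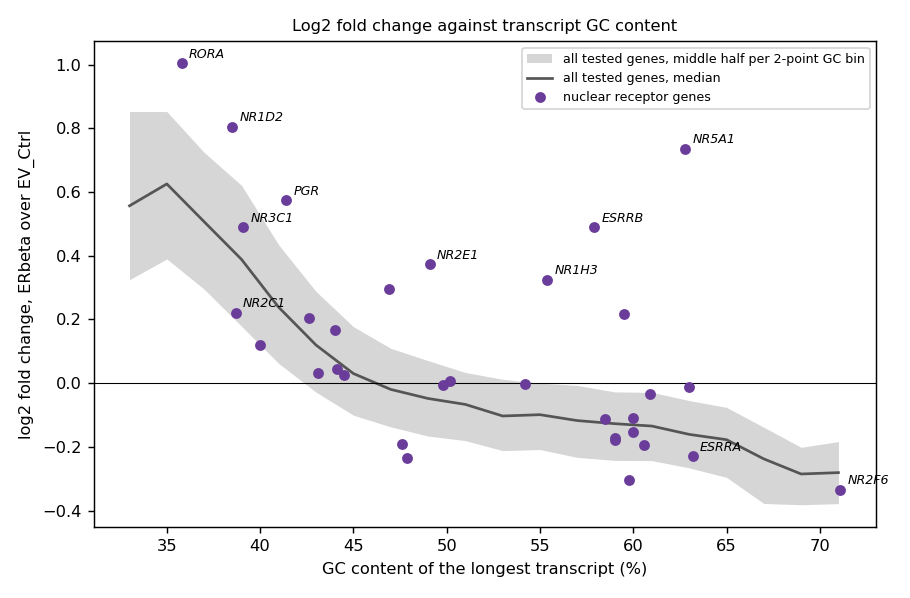
Log2 fold change of ERbeta over EV_Ctrl against GC content (in percent, longest transcript), for the 33 tested receptor genes (purple points), with the median (grey line) and interquartile range (grey band) of all tested genes per GC bin. Of the receptors 20 lie within the grey band, 3 below it and 10 above it, among them RORA at 1.00 on the left and NR5A1, ESRRB and NR1H3 further right.

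Leaving out EV_Ctrl 2 changed which receptors passed. Then RORA, PGR, NR3C1 and NR1D2 passed edgeR's test, 11.8% of 34 receptors, beside 14.3% of all genes (13.5% higher and 0.775% lower). NR3C1 was at 0.64 with an adjusted p of 0.0168. With GC correction as well, RORA, PGR and NR1H3 passed, 8.82% beside 11.3% of all genes (9.17% higher and 2.14% lower), with log2 fold changes of 0.89, 0.76 and 0.61. Leaving out any other single library gave 0 receptors.

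The authors' deposited table of their own comparison gave an adjusted p under 0.05 for NR3C1 and NR1D2. Its log2 fold changes were 0.42 for NR3C1 (adjusted p 0.0391) and 0.56 for NR1D2 (adjusted p 0.0442). These were 2 of the 26 receptors with an adjusted p in the authors' deposited table, or 7.69%, beside 3.78% of the 11150 genes with one (3.35% higher and 0.43% lower). In the authors' deposited table RORA was at 0.53 with an adjusted p of 0.0673, PGR at 0.34 with 0.221, and ESR2 at -0.11 with an unadjusted p of 0.484. That table gives a mean above 0 to 8079 genes that have 0 reads in all 6 libraries of the count table, so it was not made from these 6 columns alone. Whether its log2 fold changes were shrunken toward 0 is not given in the sources used here. DESeq2 on the count table, without shrinkage, gave 1.04 for RORA and 0.81 for NR1D2. The sizes of the fold changes in the authors' deposited table were therefore not compared with those above.

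For the lists of receptor partners and targets that follow, the shares over all tested genes are 48.3% positive and, at an unadjusted p under 0.05, 9.54% higher and 2.88% lower. Without EV_Ctrl 2, when 14.3% of all genes passed in edgeR, 7 ERR targets, 5 coregulators, 4 estrogen receptor targets, 2 receptor chaperones, 2 glucocorticoid receptor targets, 2 clock genes, 2 PPAR targets (1 higher and 1 lower), 1 retinoic acid target and 1 gene of ligand supply passed, and all but that 1 PPAR target were higher. With GC correction as well, 11.3% of all genes passed (9.17% higher and 2.14% lower). Higher were 7 ERR targets, 4 coregulators and 3 glucocorticoid receptor targets. The estrogen receptor target, chaperone, PPAR target and ligand supply lists had 2 higher each. The retinoic acid, LXR, vitamin D and thyroid hormone, and clock lists had 1 higher each. That of the LXR list was NR1H3, itself a receptor already counted above. The vitamin D and thyroid hormone, clock and ligand supply lists also had 1 lower each. Some receptors also stand in these lists: PGR and RARA among estrogen receptor targets, RARB among retinoic acid targets and NR1H3 among LXR targets. The number tested in each list is given below.

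Classical estrogen receptor targets did not move one way. Of 30 genes 27 were tested, 13 positive and 14 negative with a median of -0.01, and 0 passed over all genes in edgeR. At an unadjusted p under 0.05, 4 were higher and 1 was lower, beside the 9.54% and 2.88% of all genes. TFF1, the best known target in breast cells, had 0 reads in all 6 libraries, which allows up to 0.0332 CPM over all of them. GREB1, an estrogen-induced cofactor, was at 11.5, 9.25 and 8.42 CPM in ERbeta and 12.3, 9.50 and 14.1 CPM in EV_Ctrl. The log2 fold changes were -0.28 ± 0.20 for GREB1, 0.04 ± 0.14 for MYC and -0.14 ± 0.10 for the cyclin gene CCND1, all with overlapping groups. The smallest p-values were those of XBP1 at 0.59 ± 0.09, which is also a factor of the ER stress response, of EBAG9 at 0.62 ± 0.24 and SGK3 at 0.54 ± 0.22, and of the chemokine gene CXCL12 at -0.40 ± 0.16. XBP1 alone of the list passed in DESeq2 (adjusted p 0.000916). EBAG9 was at 0.16 with GC correction, 1.01 without EV_Ctrl 2 (edgeR, adjusted p 0.00101) and 0.14 without EV_Ctrl 1 and 3, and SGK3 was at 0.15 with GC correction. XBP1 was at 0.39 with GC correction.

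Coregulators, which receptors recruit to open or close chromatin, were split evenly, with 20 of 40 tested positive and a median of 0.00. Of these 5 were at an unadjusted p under 0.05, all higher, beside 9.54% of all genes, and 0 passed with all libraries (edgeR). NCOA7, a coactivator linked to oxidative stress, was at 67.1, 60.1 and 75.2 against 40.0, 49.4 and 48.9 CPM, so all 3 controls were lower. Its log2 fold change was 0.55 ± 0.14. The splicing cofactor RBM39 was at 0.62 ± 0.16 and the corepressor LCOR at 1.09 ± 0.37. Without EV_Ctrl 2 both passed in edgeR, RBM39 at 0.84 (adjusted p 0.000411) and LCOR at 1.67 (adjusted p 0.000206), and without EV_Ctrl 1 and 3 they were at 0.28 and 0.39. NCOA7 also passed without EV_Ctrl 2, at 0.60 (adjusted p 0.019), and was at 0.33 with GC correction. TBL1XR1 of the NCoR complex was at 0.69 ± 0.25, and 0.04 with GC correction. NRIP1 (RIP140), a ligand-dependent corepressor that the estrogen and retinoic acid lists also hold, was at 63.0, 59.0 and 87.9 against 13.6, 58.9 and 17.4 CPM. EV_Ctrl 2 thus met the ERbeta libraries, and the log2 fold change was 1.19 ± 0.51 with all libraries and 2.17 without EV_Ctrl 2 (edgeR, adjusted p 4.75e-05).

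Chaperones of steroid receptors were close to even, with 8 of 12 positive and a median of 0.03, 1 at an unadjusted p under 0.05 and 0 passing (edgeR). HSP90AA1, the inducible cytosolic Hsp90, was at 1592, 1526 and 2062 against 726, 1749 and 600.3 CPM, with EV_Ctrl 2 inside the ERbeta range. The immunophilin genes FKBP5 and PPID were at 0.10 ± 0.11 and 0.25 ± 0.11, and the Hsp40 gene DNAJA1 at 0.50 ± 0.20. Without EV_Ctrl 2 HSP90AA1 was at 1.39 (edgeR, adjusted p 0.00015) and DNAJA1 at 0.79 (adjusted p 0.00107), and without EV_Ctrl 1 and 3 they were at -0.02 and 0.07.

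Targets of the glucocorticoid receptor had a median of 0.06 over 14 tested genes, 9 positive, with 2 at an unadjusted p under 0.05 and 0 passing (edgeR). TAT, tyrosine aminotransferase, a classical hormone-induced liver enzyme, had 32, 24 and 23 reads in ERbeta and 2, 6 and 4 in EV_Ctrl. That is 1.98, 1.56 and 1.85 against 0.277, 0.226 and 0.348 CPM, with no overlap and a log2 fold change of 2.71 ± 0.30. Its adjusted p was 0.13 in edgeR, equal to the smallest of all genes, and 0.00156 in DESeq2, and EV_Ctrl 2 was the lowest control. With GC correction TAT was at 2.68 and passed (edgeR, adjusted p 0.0339), and without EV_Ctrl 2 it was at 2.46 and passed (adjusted p 0.00284). TAT came above the filter on low counts only through the ERbeta libraries, where it was high. Its p-values are therefore given as a description and not as support for the difference. DUSP1, a phosphatase of stress kinases that other signals also induce, was at 0.42 ± 0.12, BIRC3 at 0.87 ± 0.40 and CDKN1C at -0.41 ± 0.19. BIRC3 was at 1.70 without EV_Ctrl 2 (edgeR, adjusted p 0.00437), 0.26 without EV_Ctrl 1 and 3 and 0.39 with GC correction, where CDKN1C was at -0.21. The liver markers ALB and APOA1, both under the filter on low counts, were also higher in ERbeta. Their group means were 0.288 against 0.0377 CPM and 0.536 against 0.0958 CPM. ALB had 8, 2 and 3 reads against 0, 3 and 0, and APOA1 had 9, 10 and 5 against 0, 3 and 2. The part of these markers in the TAT value was not tested.

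Retinoic acid targets were split, with 6 of 12 tested positive and a median of 0.09, 1 higher and 1 lower at an unadjusted p under 0.05 and 0 passing (edgeR). CYP26B1, which degrades retinoic acid, was at 11.2, 12.2 and 8.91 against 15.7, 14.8 and 14.3 CPM, all ERbeta libraries being lower (log2 fold change -0.46 ± 0.15). TGM2, transglutaminase, was at -0.42 ± 0.18 and the homeobox gene MEIS2 at 0.19 ± 0.10. LXR targets had a median of -0.10 over 11 tested genes, 3 positive, with 0 at an unadjusted p under 0.05 in edgeR. NR1H3, itself a receptor given above, had the smallest p-value of this list in edgeR. The sterol exporter gene ABCG1 was at -0.38 ± 0.25, FASN of fatty acid synthesis at -0.28 ± 0.17 and MYLIP, which degrades the LDL receptor, at 0.16 ± 0.10.

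PPAR targets had a median of 0.05 over 12 tested genes, 7 positive, with 1 higher and 1 lower at an unadjusted p under 0.05 and 0 passing (edgeR). UCP3, a mitochondrial carrier of muscle, was at 4.45, 3.91 and 4.01 against 1.94, 2.15 and 2.96 CPM, higher in all ERbeta libraries, at 0.81 ± 0.20. CPT1A, the gate of fatty acid entry into mitochondria, was at 23.3, 22.7 and 15.2 against 30.5, 24.7 and 37.7 CPM, lower in all of them, at -0.60 ± 0.22. PLIN2 of lipid droplets was at -0.17 ± 0.11 and ACADM of fatty acid oxidation at 0.61 ± 0.28. Without EV_Ctrl 2 ACADM was at 1.06 (edgeR, adjusted p 0.000325) and CPT1A at -0.74 (adjusted p 0.0236), and without EV_Ctrl 1 and 3 they were at 0.03 and -0.27. Vitamin D and thyroid hormone targets had a median of -0.01 over 6 tested genes with 0 at an unadjusted p under 0.05 in edgeR. Among them were TRPV6 of calcium uptake at -0.49 ± 0.37, KLF9 at 0.25 ± 0.16 and ATP2A2, the ER calcium pump, at 0.05 ± 0.09. The corepressor HR was at -0.67 ± 0.37, with 12, 10 and 9 reads in ERbeta and 9, 20 and 19 in EV_Ctrl. HR came above the filter on low counts through the EV_Ctrl libraries, where it was high. The HR value is therefore given as a description.

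Of the ERR targets 14 of 18 were positive, beside 48.3% of all genes, with a median of 0.19 beside -0.01. At an unadjusted p under 0.05 were 5, all higher, beside 9.54% of all genes, and 0 passed with all libraries (edgeR). Without EV_Ctrl 2, and also with GC correction added, 7 of 18 passed. Cytochrome c, CYCS, was at 232, 234 and 256 against 117, 170 and 99.5 CPM, with all controls lower and a log2 fold change of 0.90 ± 0.19 (DESeq2 adjusted p 0.0156). GABPA, a factor of mitochondrial genes, was at 1.23 ± 0.35, NDUFA5 of complex I at 1.00 ± 0.32 and the mitochondrial DNA factor TFAM at 0.58 ± 0.19. With GC correction these 3 were at 0.77, 0.48 and 0.19, and the list's median was 0.17, beside 0.05 over all tested genes. Without EV_Ctrl 1 and 3 the list's median was 0.03.

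Clock genes that work with REV-ERB and ROR had 13 of 20 positive and a median of 0.07, with 2 at an unadjusted p under 0.05, both higher, and 0 passing (edgeR). CLOCK was at 51.7, 45.9 and 67.4 against 20.5, 40.2 and 23.1 CPM, with EV_Ctrl 2 the highest control. Its log2 fold change was 0.96 ± 0.27, and 0.51 with GC correction. Without EV_Ctrl 2 CLOCK was at 1.34 (edgeR, adjusted p 0.000411). BMAL1, the partner of CLOCK and a gene that REV-ERB represses, was at 0.29 ± 0.13 and the REV-ERB competitor NFIL3 at 0.28 ± 0.14.

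Genes of ligand supply had 10 of 27 tested positive and a median of -0.08, with 2 higher and 1 lower at an unadjusted p under 0.05 and 0 passing (edgeR). CYP27A1, which makes oxysterols for LXR, was at 2.29, 2.93 and 2.57 against 0.831, 1.47 and 1.74 CPM, without overlap, at 0.87 ± 0.26. HSD17B12, named for steroid conversion and known mainly for fatty acid elongation, was at 0.71 ± 0.22, at 0.30 with GC correction and at 1.00 without EV_Ctrl 2 (edgeR, adjusted p 0.000866). HSD11B2, which inactivates cortisol in mineralocorticoid target cells, was at -0.36 ± 0.17, and CYP26B1 is given above.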

How the data were processed

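Poly(A) RNA libraries of 3 ERbeta and 3 EV_Ctrl samples were used, grouped by their titles. The submitters' processing notes name TopHat2, featureCounts, DESeq2 and hg38. Their versions, annotation and strand setting: not given in the sources used here. The deposited count table holds raw read counts per gene, with 0 reads in entries naming no gene and 0 other columns. The authors' deposited table holds per gene a normalised mean (signal), log2 fold changes with standard errors, a test score and p-values; it was never input to a test.

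Genes were kept with filterByExpr (minimum count 10, minimum total 15), scaled by TMM and tested with edgeR 4.0.16 in R 4.3.3 (quasi-likelihood, group only, Benjamini-Hochberg over 16243 genes, threshold 0.05). SEs come from the F statistic, and CPM use the reads of tested genes and TMM factors. Depth, 6833442 to 27101644 reads, limits precision most in EV_Ctrl 1; intervals cover counting error only. Exon lengths, GC content and coordinates are from GENCODE 29. GC correction used per-library loess fits (span 0.5) to GC as offsets for the 16091 genes with a GC value. Alternatives included DESeq2 1.42.0 and limma-voom (limma 3.58.1). Promoters are from RefSeq, and each window shown was picked among those of its gene for the most matches to the marked letters. The steps were tested on simulated counts.

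The members, lists, tests and alternatives were chosen with earlier results of these data known; the fit without EV_Ctrl 2 and with GC correction was added later. Values are given per library for ESR1, ESR2, the 8 expressed receptors highest per kilobase, the 10 with the smallest p-values and the expressed ones whose groups do not overlap. From each of 11 gene lists up to 4 genes with the smallest p-values are named, with TFF1, GREB1, PGR, MYC and CCND1 (1 gene is not reported here); other list or marker genes, and RARB's and ESRRA's values per library, were chosen after being seen.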

Additional observations from a re-analysis of the deposited data

How the results depend on the processing

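For genes past the threshold, 0 with all libraries, the count was 51 with no filter on low counts, 71 with DESeq2, 1 with limma-voom and 22 with GC correction. It ranged from 0 to 2324 as single libraries were left out, and was 1821 without EV_Ctrl 2 and with GC correction together. Receptors past the threshold ranged from 0 to 4 with single libraries left out and were 3 in that last setting. The receptors' median log2 fold change, 0.026, was -0.073 with library size only, 0.097 with GC correction, 0.102 without EV_Ctrl replicates 1 and 3, 0.109 without EV_Ctrl 2 and with GC correction, and -0.029 to 0.108 with single libraries left out. Over all tested genes the median was -0.012 with all libraries, 0.046 with GC correction and 0.007 without EV_Ctrl replicates 1 and 3. The ERbeta share of ESR2 reads ranged from 21.05% (without ERbeta 1, when ERbeta held 39.3% of all reads) to 57.89% (without EV_Ctrl 2, 72.06% of all reads), and was under the share of all reads each time.

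Same-numbered replicates did not deviate together in every case (correlations of 0.23, -0.14 and -0.15), so the numbers were not taken as pairs. With a replicate block, 0 genes and 0 receptors passed, with 1814 genes at an unadjusted p under 0.05, and the receptors' median was 0.023.

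Of 255 alternative values of 16 named receptors, 222 kept direction and side of the threshold, 7 newly passed and 26 changed sign. With GC correction the sign turned for RXRB (0.066), NR2F2 (0.115), NR2F6 (0.077), NR1H2 (0.163), THRA (0.089), NR2C1 (-0.166) and RARG (0.031). With GC correction and without EV_Ctrl 2 it turned for RXRB (0.135), NR2F2 (0.084), NR2F6 (0.087), NR1H2 (0.261), THRA (0.156), NR2C2 (-0.071), NR2C1 (-0.249) and RARG (0.084). NR2F2 was at 0.010 with limma-voom and 0.185 without EV_Ctrl replicates 1 and 3, and NR2C2 at -0.054 with library size only. With single libraries left out NR2F2 ranged from -0.084 to 0.069, NR1H2 from -0.114 to 0.048 and NR2C2 from -0.029 to 0.151. The cause of these turns was not tested. Leaving a lone EV_Ctrl library assumes that it varies like the ERbeta libraries. With all libraries ESR1, ESR2 and 10 other receptors were under the filter on low counts and so were not tested.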
